A study of Mus musculus with 12 samples.

Results

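The 9 genes described here belong to the transforming growth factor beta (TGF-beta) pathway and were followed in mouse cell pellets that were taken from cartilage differentiation into osteogenic culture. They were chosen by symbol. Tgfb1, Tgfb2 and Tgfb3 encode the ligands, Tgfbr1, Tgfbr2 and Tgfbr3 encode receptors, Smad3 encodes a signal transducer, and Skil and Tgfbi are response genes. All 9 were found among the 28244 genes listed, and all 9 were among the 17674 genes with values high enough to be tested. RNA was sequenced from 12 pellets of cells that the labels call mesenchymal progenitors and the methods call cartilage progenitors, released with collagenase from the ends of the femurs and tibiae of C57/BL6 pups 5 or 6 days old. Every pellet was first kept for 7 days in chondrogenic differentiation medium, and the later pellets then went into osteogenic differentiation medium. The groups are D7 (day 7, 0 days in osteogenic medium), D8 (day 8, 1 day), D10 (day 10, 3 days) and D28 (day 28, 21 days), with 3 replicates each. D7 is the only time point in chondrogenic medium, so medium, time and age of the culture cannot be told apart, and whether either commercial medium contains a TGF-beta is not given in the sources used here. The replicates are not stated to come from separate animals or preparations, so the p-values measure the spread between these libraries only.

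TGF-beta ligands are secreted in a latent complex that is stored in the matrix and must be released before they act. The active ligand binds the type II receptor, which phosphorylates the type I receptor, and the type I receptor in turn phosphorylates SMAD2 and SMAD3 so that they enter the nucleus with SMAD4 and bind target genes. In cartilage the pathway is known for driving the condensation of progenitors and matrix production and for holding back hypertrophy, and in bone for its storage in the matrix and its release during remodelling.

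The 250 bases upstream of the RefSeq starts of Tgfb1 and Tgfb2 on build GRCm38.p6 are shown because Tgfb2 fell and then rose over the time course while Tgfb1 passed the thresholds described below in no comparison. The Tgfb1 window is chr7:25686752-25687001 on the plus strand and holds 75.2% G and C. The Tgfb2 window is chr1:186705990-186706239, printed along the minus strand on which the gene lies, and holds 53.6% G and C, beside a median of 52.4% over 32851 promoter windows. Capitals mark matches to any of 5 motifs searched on both strands. For SMAD binding these were the element CAGACA and its palindromic form GTCTAGAC. The AP-1 motif was searched as TGANTCA and the cyclic AMP response element as TGACGTCA, and the box that positions the polymerase as TATAAA.
Tgfb1: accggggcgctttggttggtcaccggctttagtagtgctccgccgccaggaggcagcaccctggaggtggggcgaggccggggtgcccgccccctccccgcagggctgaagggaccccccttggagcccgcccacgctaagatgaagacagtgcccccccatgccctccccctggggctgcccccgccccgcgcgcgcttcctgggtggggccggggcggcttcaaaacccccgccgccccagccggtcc
Tgfb2: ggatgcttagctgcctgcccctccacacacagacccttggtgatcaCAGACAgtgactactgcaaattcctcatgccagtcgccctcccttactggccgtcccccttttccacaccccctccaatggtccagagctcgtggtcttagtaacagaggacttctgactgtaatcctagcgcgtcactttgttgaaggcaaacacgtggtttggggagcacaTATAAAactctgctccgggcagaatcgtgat
The Tgfb1 window held none of these letters. The Tgfb2 window held CAGACA 204 bases and TATAAA 31 bases before the start, with no overlap between matches. CAGACA occurs in 17.1% of the 32851 windows and TATAAA in 12.4%, while GTCTAGAC occurs in 0.167%, TGANTCA in 6.75% and TGACGTCA in 1.55%. A match is a description of the letters only. RefSeq windows were matched for 6 of the 9 genes, and Tgfb3, Tgfbr3 and Skil had no entry. Among the matched windows not shown, only the Tgfbr1 window that begins at chr4:47385966 held a match, CAGACA 203 bases before its start.

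The values are the log2 of an equalized read count plus 1, a scale on which 1 unit is a doubling. Sorted values are nearly the same in every library, all of which share the largest value, 20.92, so original totals are not kept and levels are relative to the other genes of the pellet. A level of 3 reads stood at 2.87 or below in every library, and the 9 genes lay between 6.29 and 12.87, so all were well above it. Markers of cartilage were present throughout: none of the 7 listed (Sox9, Col2a1, Acan, Matn1, Matn3, Col9a1 and Comp) stood at 3 reads or fewer at any time point. Of 7 osteoblast markers, 3 rose and 2 fell at D28 vs D7, and of 3 markers of hypertrophic cartilage 1 fell (Col10a1). Fewer cells of a type and less RNA per cell cannot be told apart in such bulk samples.

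Time points were compared with limma, with p-values adjusted over all genes tested, and a gene was said to have risen or fallen where its adjusted p was under 0.05 and its log2 fold change was 1 or more in size. On the first day in osteogenic medium, D8 vs D7, 1 of the 9 genes passed, Tgfb3, which fell, where 3.23% of all genes tested rose, 3.81% fell and 7.04% did either. At an adjusted p under 0.05 with no fold threshold there were 5 of 9, against 21.0% of all genes. From D8 to D10 again 1 passed, Tgfbi, which fell, where 4.08% of all genes rose, 5.58% fell and 9.66% did either, and by adjusted p alone there were 6 of 9 against 28.8%. This count went from 1 to 3 when D8 replicate 2 or D10 replicate 2 was left out, since Tgfb2 and Tgfb3 lay just under the fold threshold.

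At D10 vs D7, 3 passed (Tgfb2, Tgfb3 and Tgfbi), all of which fell, where 8.50% of all genes rose, 10.4% fell and 18.9% did either, and by adjusted p alone there were 8 of 9 against 41.2%. Between D10 and D28, 3 rose (Tgfb2, Tgfb3 and Tgfbr3) and 3 fell (Tgfbr1, Skil and Tgfbi), where 13.8% of all genes rose, 13.7% fell and 27.5% did either, and by adjusted p alone there were 8 of 9 against 52.4%. At D28 vs D8, both in osteogenic medium, 3 rose (Tgfb2, Tgfb3 and Tgfbr3) and 2 fell (Skil and Tgfbi), where 10.0% of all genes rose, 9.70% fell and 19.7% did either, and by adjusted p alone there were 7 of 9 against 41.3%. Over the whole osteogenic phase, D28 vs D7, 1 rose (Tgfb3) and 2 fell (Skil and Tgfbi), where 8.63% of all genes rose, 8.66% fell and 17.3% did either, and by adjusted p alone there were 7 of 9 against 37.3%. Smad3, Tgfb1 and Tgfbr2 did not pass both thresholds in any of the 6 comparisons. Comparisons that share a time point are not independent of each other.

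The plot of levels by time point shows the 9 genes library by library.

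**Figure D1:**
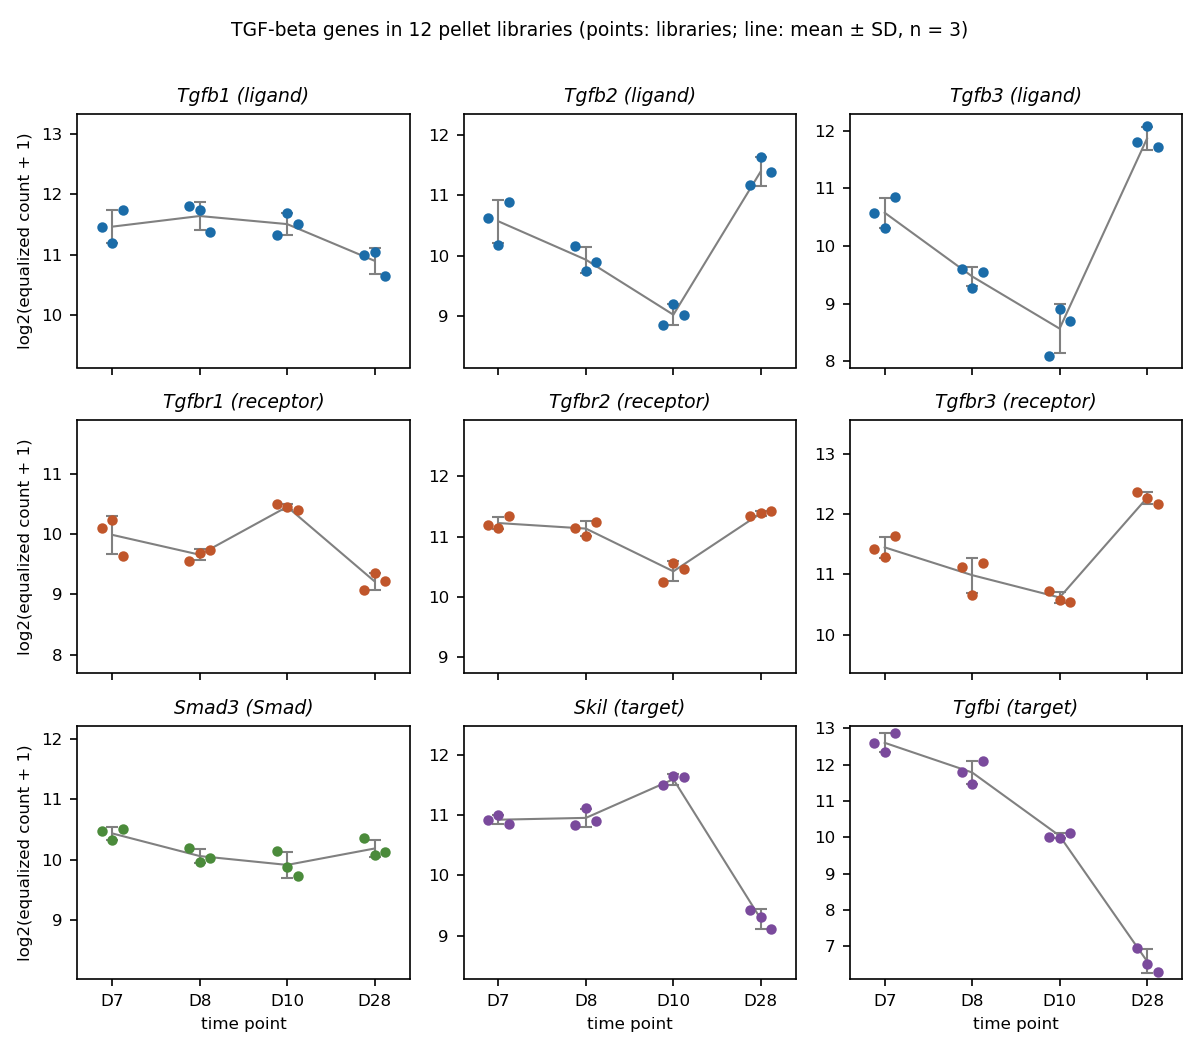
Levels of the 9 genes as log2(equalized count + 1) at D7, D8, D10 and D28; points are the 3 libraries of a time point, the line joins their means and bars are 1 SD, and the vertical axis has its own range in each panel. By mean, Tgfb2, Tgfb3, Tgfbr2 and Tgfbr3 were lowest at D10 and highest at D28, Skil and Tgfbr1 were highest at D10 and lowest at D28, and Tgfbi was lower at each later time point.

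Among the ligands, Tgfb1 was the steadiest. Tgfb1 (chr7:25687002-25705077, plus strand, GRCm38) encodes TGF-beta 1, the form stored in quantity in bone matrix. Its log2 levels were 11.46, 11.20 and 11.73 in the D7 libraries, 11.80, 11.75 and 11.38 at D8, 11.32, 11.69 and 11.51 at D10, and 10.99, 11.05 and 10.65 at D28. The D7, D8 and D10 libraries overlapped, and all D28 libraries lay below all others. The D28 mean was 10.90 ± 0.21 (SD, n = 3) against 11.47 ± 0.27 at D7, a log2 fold change of -0.57 (standard error, SE, of 0.16, limma adjusted p = 0.0094) that stays under the fold threshold. The differences of D28 from D8 and D10 were -0.74 (adjusted p = 0.0012) and -0.61 (adjusted p = 0.0038), and those among D7, D8 and D10 lay between -0.13 and 0.18 with adjusted p from 0.47 to 0.86.

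Tgfb2 and Tgfb3 went down to D10 and were highest at D28. Tgfb2 (chr1:186622792-186705989, minus strand, GRCm38) encodes TGF-beta 2, which binds the signalling receptors well only with the help of betaglycan. It stood at 10.63, 10.18 and 10.89 at D7, 10.16, 9.74 and 9.89 at D8, 8.84, 9.19 and 9.02 at D10, and 11.17, 11.64 and 11.38 at D28. No library of one time point overlapped with those of another. Tgfb2 fell from 10.57 ± 0.36 at D7 to 9.02 ± 0.18 at D10, a log2 fold change of -1.55 (SE 0.17, adjusted p = 4.2e-06), and was 5.21-fold higher at D28 than at D10, with a log2 fold change of 2.38 (SE 0.17, adjusted p = 2.2e-08). The single steps were smaller, -0.64 from D7 to D8 (adjusted p = 0.016) and -0.91 from D8 to D10 (adjusted p = 0.0013). At D28 it was 2.77-fold above D8 (log2 fold change 1.47, adjusted p = 6.2e-06), while the difference of D28 from D7, 0.83 (adjusted p = 0.0014), did not reach the fold threshold.

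Tgfb3 had the widest swing of the ligands. Tgfb3 (chr12:86056745-86079041, minus strand, GRCm38) encodes TGF-beta 3, which is widely used to induce cartilage formation in pellet culture. In the single libraries it measured 10.57, 10.31 and 10.84 at D7, 9.59, 9.28 and 9.54 at D8, 8.09, 8.91 and 8.70 at D10, and 11.80, 12.08 and 11.71 at D28. Here too no time points overlapped, and D10 replicate 1 was the lowest of the 12 libraries. Tgfb3 fell on the first day in osteogenic medium from 10.58 ± 0.26 to 9.47 ± 0.17, a log2 fold change of -1.10 (SE 0.19, adjusted p = 0.00064), but without D7 replicate 3 the value was -0.97 (adjusted p = 0.0037), just under the fold threshold. It was 4.02-fold lower at D10 than at D7 (log2 fold change -2.01, adjusted p = 6e-07). It was 9.80-fold higher at D28 than at D10 (log2 fold change 3.29, SE 0.19, adjusted p = 1.3e-09), and 2.44-fold higher at D28 than at D7 (log2 fold change 1.29, adjusted p = 5.6e-05). The gene shares its region with the protein-coding Ttll5 on the other strand, and although the library kit keeps the strand, the strand setting of the counting is not given in the sources used here. Tgfb2 and Tgfbr3 overlap 2 and 4 other annotated genes, none of them annotated as protein-coding. Of these, Gm42900, Gm43422 and Gm43423 lie on the same strand as Tgfbr3.

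Markers of cartilage moved in the same time window. Of the 7 cartilage markers, 5 fell at D10 vs D7, with a median log2 fold change of -1.65, and 4 rose at D28 vs D10, with a median of 1.35. Their summed equalized counts were 2431008 to 2442486 at D7 and 1098559 to 1139696 at D10, and 2337054 to 2403622 at D28. Col2a1 weighs most in this sum. It stood at 20.92, the largest value, in every D7, D8 and D28 library. In every D10 library it stood at 19.87 and Fn1 held the largest value. Because the libraries share their top values after equalization, the gap between these levels sets most of the change in the sum. Markers of adipocytes (Adipoq, Plin1, Cfd, Fabp4 and Lpl) were also present, with summed counts of 5969 to 6428 at D7, 2364 to 2648 at D10 and 57093 to 78768 at D28. All 5 rose at D28 vs D10, with a median log2 fold change of 4.55. Osteoblast markers were mixed at D10 vs D7, where 3 of 7 rose and 4 fell, and 5 of 7 rose at D28 vs D10. Those that fell and then rose were Ibsp (-6.34, then 4.86), Alpl (-3.26, then 2.47) and Sp7 (-1.33, then 1.00), all as log2 fold changes. The 3 that rose at D10 vs D7 were Bglap, Bglap2 and Spp1. Bglap had means of 3.21 at D7, 6.46 at D10 and 8.98 at D28, and Bglap2 had 3.18, 7.50 and 9.05. Each was at 3 reads or fewer in 1 D7 library. Spp1 had 16.77, 18.92 and 18.42, and Col1a1, which fell at D10 vs D7, had 18.72, 17.21 and 17.30. Of 3 hypertrophic markers, Mmp13 fell and rose (-2.51, then 2.45), as did Ihh, which was at 3 reads or fewer in 2 of the D10 libraries, while Col10a1 fell at D28 vs D10 (-3.82). The summed counts of the osteoblast markers were 486604 to 682584 at D7, 604711 to 693678 at D10 and 505125 to 597749 at D28. Those of the hypertrophic markers were 181461 to 222382, 210615 to 341079 and 56910 to 98352. Spp1 and Col1a1 weigh most in the osteoblast sum, with means of 497036 and 156428 at D10, and Col10a1 and Mmp13 in the hypertrophic sum. The part of any of these cell types in the levels of Tgfb2 and Tgfb3 was not tested.

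The makeup of the ligand transcripts differed most between D10 and D28. Equalized counts were divided by the kilobases of all annotated exons of a gene. This is only a rough correction for length, since the transcript forms expressed are not known. Per kilobase of exon, Tgfb1 made up 63.6% ± 0.59 (SD, n = 3) of the summed ligand count at D7, 78.6% ± 3.39 at D8 and 86.3% ± 1.00 at D10, but 35.2% ± 2.91 at D28. Tgfb3 went from 22.1% ± 0.29 at D7 through 11.3% ± 2.06 at D8 and 7.27% ± 1.11 at D10 to 44.0% ± 0.63 at D28. Tgfb2 stayed the smallest by mean share at every time point, with 14.3% ± 0.89, 10.1% ± 1.42, 6.41% ± 0.11 and 20.8% ± 2.40. At D28 the Tgfb3 share, 43.3% to 44.5%, lay above the Tgfb1 share, 33.0% to 38.5%, in every library, the reverse of the other time points. The summed ligand count per kilobase had its lowest mean at D10, 1561 ± 216, and was 2068 ± 398 at D7, 1880 ± 235 at D8 and 2513 ± 321 at D28. On the log2 scale without length, the difference of Tgfb3 from Tgfb1 within a library was -0.89 ± 0.0058 at D7, -2.94 ± 0.25 at D10 and 0.96 ± 0.14 at D28. These shares are descriptions with no test of their own.

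**Figure D2:**
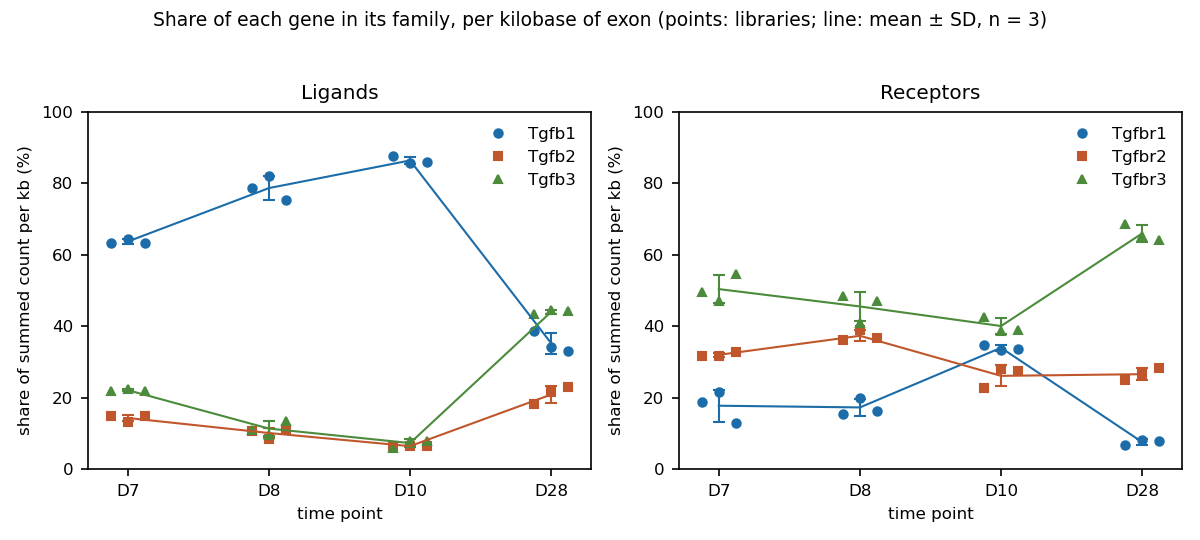
Share of each ligand (left) and each receptor (right) in the summed equalized count per kilobase of exon of its family, in percent, at D7, D8, D10 and D28; points are libraries, lines join means and bars are 1 SD (n = 3). Tgfb1 went from 86.3% of ligand transcripts at D10 to 35.2% at D28 while Tgfb3 went from 7.27% to 44.0%, and Tgfbr1 went from 33.9% of receptor transcripts to 7.55%.

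The receptors did not move together. Tgfbr1 (chr4:47353222-47414931, plus strand, GRCm38) encodes the type I receptor, the kinase that phosphorylates SMAD2 and SMAD3. The receptor's transcript stood at 10.10, 10.23 and 9.63 at D7, 9.55, 9.70 and 9.73 at D8, 10.51, 10.45 and 10.41 at D10, and 9.07, 9.35 and 9.23 at D28. The D10 libraries were the highest and the D28 libraries the lowest, and D7 and D8 overlapped. Tgfbr1 fell from 10.46 ± 0.05 at D10 to 9.22 ± 0.14 at D28, 2.36-fold, with a log2 fold change of -1.24 (SE 0.14, adjusted p = 2e-06). The difference between D10 and D8, 0.80 (adjusted p = 0.0006), and that between D28 and D7, -0.77 (adjusted p = 0.00037), were under the fold threshold.

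Tgfbr2 (chr9:116084293-116175360, minus strand, GRCm38) encodes the type II receptor, which binds the ligand first and phosphorylates the type I receptor. Library by library it stood at 11.19, 11.14 and 11.33 at D7, 11.14, 11.01 and 11.25 at D8, 10.24, 10.56 and 10.47 at D10, and 11.34, 11.40 and 11.42 at D28. The D10 libraries were the lowest, with no overlap with any other time point. No difference reached the fold threshold: D10 differed from D7 by -0.80 (SE 0.10, adjusted p = 1.9e-05) and D28 from D10 by 0.96 (adjusted p = 1.6e-06), and D28 differed from D7 by 0.16 (adjusted p = 0.25). The D28 vs D10 value lay so close to the threshold that it became 1.03 (adjusted p = 4e-06) without D10 replicate 2 and 1.09 (adjusted p = 3.5e-07) with a median-of-ratios scaling.

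Tgfbr3 (chr5:107106570-107289629, minus strand, GRCm38) encodes betaglycan, the co-receptor that presents TGF-beta 2 to the signalling receptors and whose shed form binds ligand outside the cell. Per library it measured 11.42, 11.29 and 11.64 at D7, 11.13, 10.65 and 11.18 at D8, 10.72, 10.58 and 10.55 at D10, and 12.37, 12.27 and 12.17 at D28. The D28 libraries were all above the others, and D8 and D10 overlapped. Tgfbr3 rose from 10.62 ± 0.09 at D10 to 12.27 ± 0.10 at D28, 3.15-fold, with a log2 fold change of 1.65 (SE 0.13, adjusted p = 7.3e-08), and D28 was also 2.43-fold above D8 (log2 fold change 1.28, adjusted p = 1.8e-06). The difference of D28 from D7 was 0.82 (adjusted p = 0.00018) and that of D10 from D7 was -0.83 (adjusted p = 0.00014), both under the fold threshold. The adipocyte markers given above were highest at the same time point, and their part in the level of Tgfbr3 was not tested.

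Within a library, the log2 difference of Tgfbr1 from Tgfbr2 was -1.23 ± 0.41 at D7 and -1.47 ± 0.14 at D8, close to 0 at D10, with 0.03 ± 0.20, and -2.17 ± 0.11 at D28. Per kilobase, Tgfbr1 made up 17.7% ± 4.42 of the summed receptor count at D7 and 17.2% ± 2.44 at D8, then 33.9% ± 0.80 at D10 and 7.55% ± 0.83 at D28. Tgfbr2 held 31.9% ± 0.63, 37.3% ± 1.53, 26.1% ± 2.97 and 26.5% ± 1.61, and Tgfbr3 50.3% ± 3.82, 45.5% ± 3.97, 40.0% ± 2.18 and 65.9% ± 2.30. D10 was thus the time point at which the receptor kinases were closest in transcript level and D28 the one at which they were farthest apart. The summed receptor count per kilobase was 645 ± 13.1 at D10 and 1233 ± 42.3 at D28.

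Smad3 (chr9:63646767-63757994, minus strand, GRCm38), which encodes the transcription factor that carries the signal to the nucleus, had the smallest range of the 9 genes, with time-point means within 0.52 of each other on the log2 scale. Its levels were 10.47, 10.32 and 10.51 at D7, 10.19, 9.95 and 10.03 at D8, 10.14, 9.88 and 9.72 at D10, and 10.35, 10.08 and 10.12 at D28. The D28 libraries overlapped with those of every other time point. The farthest apart were D7 and D10, with a log2 fold change of -0.52 (SE 0.12, adjusted p = 0.0029) that was under the fold threshold. Its partners Smad2, the other SMAD of this pathway, and Smad4, the shared SMAD, were also called in none of the comparisons, and their D10 vs D7 values were 0.71 and 0.38. Both were highest in D10 replicate 1. The D10 libraries were at 11.01, 10.34 and 10.46 for Smad2 and at 11.39, 10.90 and 10.91 for Smad4.

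The response genes ended low. Skil (chr3:31095058-31122577, plus strand, GRCm38) encodes SnoN, a repressor of SMAD-driven transcription whose gene is itself induced by TGF-beta as a negative feedback. Its log2 levels were 10.92, 11.00 and 10.85 at D7, 10.83, 11.13 and 10.90 at D8, 11.49, 11.65 and 11.64 at D10, and 9.42, 9.30 and 9.10 at D28. The D10 libraries were above and the D28 libraries below all others. Skil fell from 11.59 ± 0.09 at D10 to 9.27 ± 0.16 at D28, 4.99-fold, with a log2 fold change of -2.32 (SE 0.11, adjusted p = 1.9e-10), and was 3.13-fold lower at D28 than at D7 (log2 fold change -1.65, adjusted p = 2.1e-08). Its D10 level exceeded that of D7 by 0.67 (adjusted p = 0.00015), under the fold threshold.

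Tgfbi (chr13:56609523-56639562, plus strand, GRCm38) encodes an integrin-binding matrix protein that was found as a gene induced by TGF-beta. On the log2 scale its libraries read 12.61, 12.34 and 12.87 at D7, 11.80, 11.47 and 12.10 at D8, 10.01, 10.00 and 10.12 at D10, and 6.95, 6.52 and 6.29 at D28. Each later time point lay below the one before it without overlap. Tgfbi fell by 2.56 on the log2 scale from D7 to D10 (SE 0.18, adjusted p = 3.5e-08) and by another 3.45 from D10 to D28 (adjusted p = 4.9e-10). At D28 its mean was 6.59 ± 0.33 against 12.60 ± 0.26 at D7, 64.7-fold lower (log2 fold change -6.02, SE 0.18, adjusted p = 5.2e-12). The first day alone gave -0.82 (adjusted p = 0.0041), under the fold threshold.

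Skeletal muscle markers (Myh3, Myod1, Myog, Acta1, Ckm and Des) went down over the same time points. Their summed equalized counts were 2630 to 3405 at D7, 780 to 1330 at D8, then 264 to 402 at D10 and 52.7 to 136 at D28, and 6 of 6 fell at D28 vs D7, with a median log2 fold change of -5.75. Myh3 and Myod1 stood at 3 reads or fewer in all D28 libraries. Macrophage markers (Ptprc, Cd68, Adgre1, Csf1r, Lyz2 and Aif1) summed to between 1058 and 1230 at D7 and 839 to 4419 at D28. The part of muscle or of macrophages in the level of Tgfbi was not tested.

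Skil and Tgfbi thus differed in direction at D10 vs D7, with log2 fold changes of 0.67 and -2.56, of which only the second passed the fold threshold. On the log2 scale without length, the difference of Skil from Tgfbi within a library was -1.68 ± 0.33 at D7 and -0.83 ± 0.44 at D8, and then 1.55 ± 0.09 at D10 and 2.69 ± 0.19 at D28. The plot of fold changes sets the 9 genes side by side in 3 of the comparisons.

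**Figure D3:**
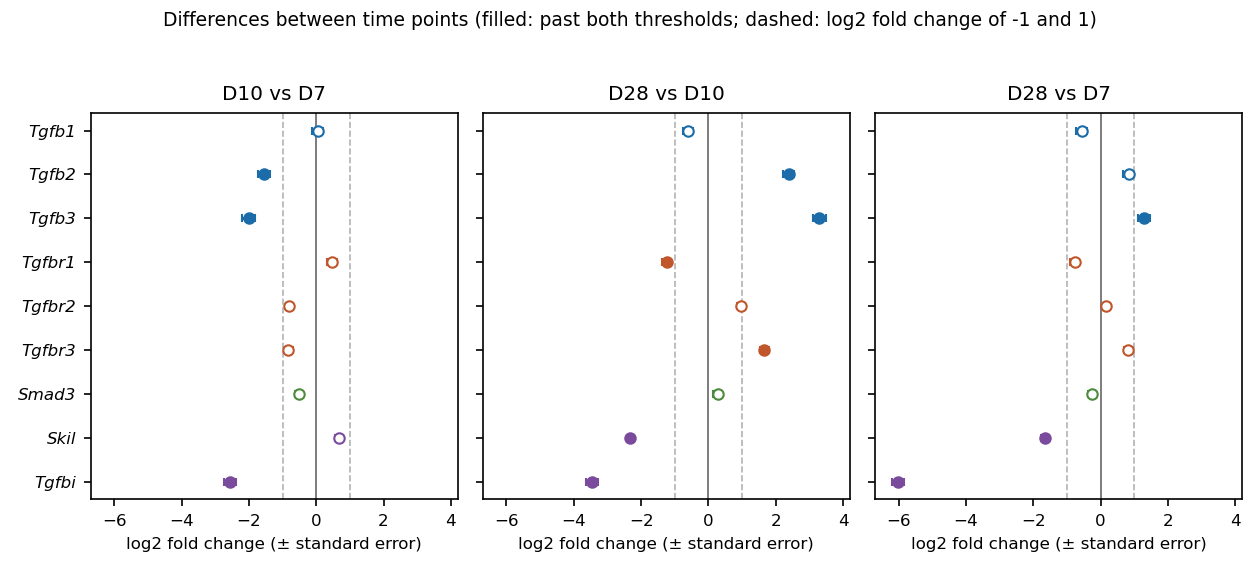
Log2 fold change of each gene with its standard error from limma, at D10 vs D7 (left), D28 vs D10 (middle) and D28 vs D7 (right); filled points pass both thresholds and dashed lines mark a log2 fold change of -1 and 1. Tgfb2 and Tgfb3 lie on opposite sides of 0 in the left and middle panels, Tgfbi is the lowest point in all panels, and Smad3, Tgfb1 and Tgfbr2 stay within the dashed lines.

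Ordered by level per kilobase of exon on the log2 scale, the genes changed places over the course. At D7 Tgfbi (11.16 ± 0.26) was highest, followed by Tgfb1 (10.34 ± 0.27), while Tgfbr3 (8.84 ± 0.18) and Tgfb3 (8.82 ± 0.26) did not differ beyond their spread. Tgfbr2 (8.19 ± 0.10), Tgfb2 (8.19 ± 0.36), Skil (8.17 ± 0.07) and Smad3 (8.09 ± 0.10) followed within their spread, and Tgfbr1 (7.31 ± 0.31) was lowest. At D10 Tgfb1 (10.39 ± 0.19) led, ahead of Skil (8.85 ± 0.09) and Tgfbi (8.60 ± 0.07), and Tgfb3 (6.81 ± 0.42) and Tgfb2 (6.64 ± 0.18) were lowest and overlapped. At D28 Tgfb3 (10.10 ± 0.19) was highest, above Tgfb1 (9.78 ± 0.21) and Tgfbr3 (9.67 ± 0.10), which overlapped, and Tgfbi (5.13 ± 0.34) was lowest, below Tgfbr1 (6.53 ± 0.14) and Skil (6.52 ± 0.16).

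The likeness of profiles was taken as the root mean square difference between the centred means of the 4 time points, so that 0 is the same shape and size of change on the log2 scale. Among the 9 genes, Tgfbr2 and Smad3 were closest, at 0.267, followed by Tgfb2 and Tgfbr3 at 0.296, Tgfb1 and Tgfbr1 at 0.338, Tgfbr2 and Tgfbr3 at 0.373, Tgfb1 and Smad3 at 0.376, and Tgfb2 and Tgfb3 at 0.380. Tgfb3 and Tgfbi were the farthest apart, at 3.14. Over 13255 genes of sufficient level, the profile of Tgfb3 was nearest to Pcdh10 (0.102), Net1 (0.136) and Adamts9 (0.146), and that of Tgfb2 to Myadm (0.0526), Cd59a (0.0600) and Ncf1 (0.0627). Skil was nearest to Fnbp1l (0.0624), Ppfia3 (0.0769) and Card10 (0.0780). Tgfbi was nearest to Acta1, the skeletal muscle actin (0.199), Adamtsl2 (0.205) and Fam25c (0.343). Tgfb1 was nearest to Tmem185b (0.0176), Tlr2 (0.0284) and Neo1 (0.0321), and Smad3 to Dynlt1f (0.0209), Maged1 (0.0210) and Sppl2a (0.0217). Tgfbr1 was nearest to Mex3c (0.0201), Kpna1 (0.0411) and 1700066M21Rik (0.0446), Tgfbr2 to Ccdc28b (0.0123), Plcb1 (0.0276) and Mpnd (0.0322), and Tgfbr3 to Lppos (0.0211), Prss23 (0.0331) and Ifngr1 (0.0430).

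Beyond the 9 genes, 54 other genes of the pathway were listed by role and all 54 were tested. At D10 vs D7, 6 rose (11.1%, beside 8.50% of all genes) and 14 fell (25.9%, beside 10.4%), with a median log2 fold change of -0.07 beside 0.05 over all genes tested. The number that fell lay between 10 and 14 with 1 library left out, and was 10 without D10 replicate 1. Between D10 and D28, 10 rose (18.5%, beside 13.8%) and 18 fell (33.3%, beside 13.7%), with a median of -0.26 beside -0.10. At D28 vs D7, 5 rose (9.26%, beside 8.63%) and 14 fell (25.9%, beside 8.66%), with a median of -0.15 beside -0.03. The share that rose was thus close to that of all genes at D28 vs D7. At D8 vs D7, 3 rose (5.56%, beside 3.23%) and 7 fell (13.0%, beside 3.81%), and at D10 vs D8, 3 rose (5.56%, beside 4.08%) and 4 fell (7.41%, beside 5.58%). The number that fell at D10 vs D8 lay between 2 and 6 with 1 library left out, being 2 without D10 replicate 1 and 6 without D10 replicate 2. At D28 vs D8, 7 rose (13.0%, beside 10.0%) and 14 fell (25.9%, beside 9.70%).

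Of the 4 matrix proteoglycans that bind TGF-beta, 3 fell at D10 vs D7 (beside 10.4% of all genes) and 3 rose at D28 vs D10 (beside 13.8%). Aspn, which encodes asporin, an inhibitor of TGF-beta in cartilage, fell from 12.02 ± 0.27 at D7 to 8.86 ± 0.63 at D10 (log2 fold change -3.17, adjusted p = 1e-06) and rose to 12.10 ± 0.48 at D28 (log2 fold change 3.24, adjusted p = 4.1e-07). Dcn, encoding decorin, and Fmod, encoding fibromodulin, had D10 vs D7 values of -1.84 and -1.94 and D28 vs D10 values of 2.21 and 2.32, while Bgn, encoding biglycan, had -0.09 and 0.24 and passed neither test. Tgfb2 and Tgfb3 fell and rose in the same comparisons as Aspn, Dcn and Fmod.

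Of the 5 other receptors and co-receptors, 4 fell at D10 vs D7 (80.0%, beside 10.4% of all genes) and 3 rose at D28 vs D10 (60.0%, beside 13.8%). The first count dropped to 2 without D10 replicate 1, where Eng was at -0.98 and Bambi at -0.99, and Bambi was at -0.83 without D7 replicate 2 and Eng at -0.95 without D7 replicate 3. Acvr1b, which encodes the type I receptor of activin, went from 9.92 ± 0.27 at D7 to 8.11 ± 0.04 at D10 and 9.96 ± 0.07 at D28 (log2 fold changes of -1.81, adjusted p = 1.1e-07, and 1.85, adjusted p = 3.8e-08). Acvrl1, which encodes ALK1, a further type I receptor, fell by 1.33 on the log2 scale from D7 to D10 (adjusted p = 0.00024) and at D28 was above D7 by 1.51 (adjusted p = 8.6e-05). Eng, encoding the co-receptor endoglin, had -1.10 at D10 vs D7 (adjusted p = 7.2e-05) and 1.37 at D28 vs D10 (adjusted p = 4.9e-06). Acvrl1 and Eng are also endothelial genes, and the endothelial markers Pecam1, Cdh5, Tek and Kdr summed to 10.3 to 27.3 equalized counts at D7, 51.0 to 177 at D8, 15.5 to 88.4 at D10 and 8.58 to 30.6 at D28. None of the 4 was at 0 in all libraries of a time point, Kdr was at 3 reads or fewer in every D7 library and Cdh5 in every D10 and D28 library. Their part in the levels of Acvrl1 and Eng was not tested.

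Of 6 intracellular inhibitors, 2 rose at D10 vs D7 (33.3%, beside 8.50% of all genes) and 4 fell at D28 vs D10 (66.7%, beside 13.7%). Of 7 SMADs, cofactors and adaptors, 1 rose (14.3%) and 2 fell (28.6%) in those comparisons. The others did not pass at D10 vs D7, among them Smad6 with means of 9.42 at D7 and 8.50 at D10 and Ski with 12.35 and 11.87. Tgif1, which encodes a SMAD corepressor, rose from 9.15 ± 0.10 at D7 to 11.83 ± 0.49 at D10 (log2 fold change 2.68, adjusted p = 1.5e-07) and fell to 9.08 ± 0.41 at D28 (log2 fold change -2.75, adjusted p = 4.8e-08). Smurf1, a ubiquitin ligase that marks receptors and SMADs for degradation, rose by 1.60 at D10 vs D7 (adjusted p = 1.9e-06), and Smad7, the inhibitory SMAD, by 1.11 (adjusted p = 2.4e-05). Skil, which reached 11.59 at D10 without passing the fold threshold, fell at D28 vs D10 together with Tgif1, Smad7, Smurf1, Smurf2 and Pmepa1. Tgif2 also passed there (log2 fold change -1.44, adjusted p = 0.0082), with D28 libraries at 2.82, 4.38 and 2.82, but its call was lost when only the libraries of the 2 time points entered, gene by gene, with the same fold threshold and an unadjusted p. Pmepa1, a TGF-beta-induced inhibitor of SMAD signalling, was near 13.57 ± 0.18 at D7 and 13.35 ± 0.34 at D10 and fell to 10.56 ± 0.29 at D28 (log2 fold change -3.00 vs D7, adjusted p = 8.7e-09).

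Of 13 latency and activation genes, 1 rose and 2 fell at D10 vs D7 (23.1% called, beside 18.9% of all genes; without D10 replicate 1 none fell, as Itgb6 and Thbs1 were both lost), and 1 rose and 6 fell at D28 vs D10 (53.8% called, beside 27.5%). Ltbp4, a latent TGF-beta binding protein, went from 10.07 ± 0.15 at D7 to 7.23 ± 0.52 at D28 (log2 fold change -2.83, adjusted p = 3.3e-08), and Ltbp1, Ltbp2 and Ltbp3 fell at D28 vs D10 by 1.33, 1.17 and 1.14 on the log2 scale. Itgb8, an integrin subunit that releases TGF-beta from its latent complex, rose at D10 vs D7 (log2 fold change 1.23, adjusted p = 0.00041). Nrros, which encodes a protein that holds latent TGF-beta on macrophages and microglia, rose at D28 vs D7 (log2 fold change 2.13, adjusted p = 0.001) from a low level of 3.07 ± 0.62. The macrophage markers summed to 4419 in 1 of the D28 libraries, replicate 2, and their part in the level of Nrros was not tested. Itgb6, a further activating integrin subunit, is listed as having fallen at D10 vs D7 (log2 fold change -1.85, adjusted p = 0.037), but it lay at 3 reads or fewer in all D10 libraries, and it was no longer called when any D7 library or D10 replicate 1 was left out.

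The list of 19 widely used readout genes was split in direction. At D10 vs D7, 2 rose (10.5%, beside 8.50% of all genes) and 5 fell (26.3%, beside 10.4%). At D28 vs D10, 3 rose (15.8%, beside 13.8%) and 6 fell (31.6%, beside 13.7%), and at D28 vs D7, 3 rose (15.8%, beside 8.63%) and 9 fell (47.4%, beside 8.66%). The shares that rose at D10 vs D7 and at D28 vs D10 were thus near those of all genes. The last count lay between 7 and 9 with 1 library left out. It includes Fn1, encoding fibronectin, singled out after its values were seen, which was listed at the same value, 19.87, in every D7 and D8 library (log2 fold change -1.25, adjusted p = 0.04 at D28 vs D7). That call was lost without any 1 of 8 libraries and, among other settings, with no filter on low values (adjusted p = 0.17) and with low values raised to the 3-read level (adjusted p = 0.78), the last of which also ended its call at D28 vs D10 (adjusted p = 0.45). Postn, encoding the matrix protein periostin, fell at D10 vs D7 (log2 fold change -2.60, adjusted p = 3.4e-08). Bhlhe40, a transcription factor, rose at D10 vs D7 (log2 fold change 1.15, adjusted p = 0.0004), a call that rests on D10 replicate 1, without which the value was 0.87 (adjusted p = 0.0012). Il11, the other readout gene that rose there, had 1.14, and 0.96 (adjusted p = 0.018) without D10 replicate 2. The number that rose thus lay between 1 and 2 with 1 library left out. Prg4, encoding the joint lubricant lubricin, fell at D28 vs D7 (log2 fold change -2.79, adjusted p = 2.1e-07), while Cdkn2b, encoding a cell cycle inhibitor, rose (log2 fold change 2.15, adjusted p = 3.8e-07). Ccn2, encoding connective tissue growth factor, had -0.67 at D10 vs D7 and -0.99 at D28 vs D7 and did not pass the fold threshold, although the second value was -1.03 without D7 replicate 2 and -1.17 without D28 replicate 1. The first value leans on D10 replicate 1, where Ccn2 was at 14.38, against 15.20 in both other D10 libraries. At D28 vs D7, 7 of the 19 did not pass the test.

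**Figure D4:**
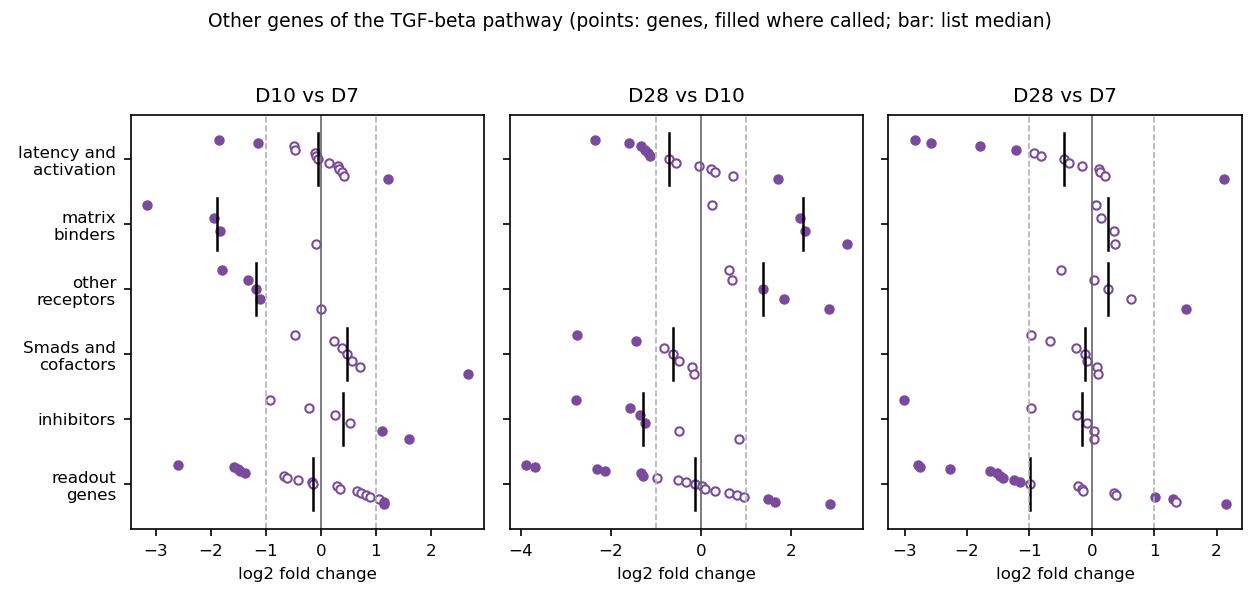
Log2 fold changes of the 54 other pathway genes by list at D10 vs D7 (left), D28 vs D10 (middle) and D28 vs D7 (right); each point is a gene, filled where it passes both thresholds, the black bar is the median of the list and dashed lines mark -1 and 1. Matrix binders and other receptors lie mostly left of 0 at D10 vs D7 and right of it at D28 vs D10, and the inhibitors have medians of 0.39 and -1.29 in those panels.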

How the data were processed

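Poly-A RNA of 12 pellets (3 each at D7, D8, D10 and D28) was sequenced from strand-keeping libraries. The authors deposited log2 values for each library: HTSeq read counts per gene, equalized between libraries, plus 1, on the log2 scale. The submitters' processing notes name Trimmomatic 0.36, HISAT2, Cufflinks, HTSeq and GRCm38, while the supplementary methods name hg38, although the symbols are those of mouse. Genes reaching a log2 value of 1 in 3 or more libraries were tested with limma 3.58.1 in R 4.3.3, with 1 mean per time point, a variance trend and Benjamini-Hochberg adjustment over 17674 genes. Levels per kilobase used the exon union of GENCODE M21, and sequences came from RefSeq tables. Members and lists were chosen with earlier results of these data known. All 9 members were named, of each list the largest called rise and fall at D10 and D28 vs D7, and genes of textbook role; other called list genes were named after their values were seen. Alternatives covered the filter, scaling, pseudocount, variance prior, call rule, libraries fitted, a replicate block and each library left out. Depth is known only from the lowest levels, which carry counting error only. No batch or date was given. Python 3.11.15 with pandas 2.3.3 made the tables.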

Additional observations from a re-analysis of the deposited data

How the results depend on the processing

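Each of the 54 comparisons of a member was recomputed under 22 alternatives, 12 of which left out 1 library. Of these single values, 1153 kept their direction and side of the threshold and 35 did not: 1 call was lost, 22 were gained with adjusted p alone, 6 were gained otherwise and 6 values near 0 reversed. By adjusted p alone the members counted 5 at D8 vs D7, 6 at D10 vs D8, 8 at D10 vs D7 and 7 at D28 vs D7, and the 54 other pathway genes 21 at D8 vs D7, 23 at D10 vs D8, 33 at D10 vs D7, 42 at D28 vs D10, 35 at D28 vs D8 and 25 at D28 vs D7, where 21.0%, 28.8%, 41.2%, 52.4%, 41.3% and 37.3% of all genes passed. With 1 library left out, the member count lay between 0 and 1 at D8 vs D7, being 0 without D7 replicate 3, and between 1 and 3 at D10 vs D8. The pathway count at D10 vs D8 lay between 4 and 9, being 4 without D10 replicate 1. That at D10 vs D7 lay between 16 and 20. Skil at D8 vs D7 reversed to -0.021 with median-of-ratios scaling, and with 1 library left out lay between -0.056 and 0.089, reversed without D7 replicate 3 (-0.0045) and D8 replicate 2. Tgfb1 at D10 vs D7 reversed to -0.031 with that scaling, and with 1 library left out lay between -0.092 and 0.18, reversed without D7 replicate 2 and D10 replicate 2 (-0.049). The cause was not tested. The scaling moved the median of all genes at D28 vs D10 by 0.11, from -0.10 to 0.01. With the replicate number as a block, the member counts stayed at 1, 1, 3, 6, 5 and 3. Deviations from the time-point means correlated between -0.06 and 0.07 for same-numbered libraries and between -0.07 and 0.09 for the others. No pairing by number was visible, but such a check cannot exclude a shared animal or preparation. Raising low values to 2.87, chosen after seeing the data, changed no member's call. Original totals are not kept, so counting error cannot be given for a library.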
